A study of Danio rerio with 9 samples.

Results

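The calcium handling and excitation-contraction genes of the zebrafish (Danio rerio) were followed through 3 dissected tissues of the early heart region: the heart tube, the proepicardium, which is the cell cluster that gives rise to the epicardium, and the dorsal pericardium. Members were chosen by symbol, as ryanodine and inositol trisphosphate receptors, calcium pumps and their inhibitors, voltage-gated calcium channel subunits, sodium-calcium exchangers, luminal and junctional proteins of the sarcoplasmic reticulum, calmodulins and calcium/calmodulin-dependent kinase II, store-operated entry genes and S100 proteins, with a total of at least 10 counts over the 9 libraries. Of 32520 gene identifiers, 132 had such a symbol and 108 reached the total. The members just inside this limit were CACNA2D1, CAMK2N1 and slc8a2a with 11, 12 and 13 counts, and those just outside it were cacna1fa, atp2b3a and cacna1eb with 9 counts each. All libraries came from strain AB larvae at 60 hours post fertilisation that carried the epi:eGFP and myl7:mRFP reporter transgenes, the second driven by the promoter of a heart muscle myosin light chain. The heart tube had 3 libraries, the proepicardium 4 and the pericardium 2, each from at least 10 organs dissected by hand and pooled, with cDNA amplified by a kit for ultra-low input. The series' design text counts 3 proepicardium samples, and the 4 in the sample labels were used.

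Each beat of a heart muscle cell begins with calcium entering through L-type channels in the cell membrane, which opens ryanodine receptors and releases calcium from the sarcoplasmic reticulum onto the contractile filaments. The SERCA pump, held back by phospholamban, refills the store, the sodium-calcium exchanger removes calcium from the cell, and calsequestrin buffers it inside the store. Cells that do not contract release calcium mainly through inositol trisphosphate receptors and refill their stores through STIM sensors and ORAI channels. Teleost fish carry many of these genes as duplicated copies.

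Totals ran from 8883187 counts (proepicardium 4) to 19401502 counts (heart tube 1), and levels are given as CPM, counts scaled to a common library size, after TMM adjustment. A count of 0 allows up to 3 counts, which is 0.150 to 0.331 CPM in the different libraries and covers counting error only, since the amplified cDNA carries no molecular identifiers in these files. The 10 cardiomyocyte markers summed to 54064 to 64366 CPM in heart tube libraries, 126 to 448 CPM in proepicardium libraries and 26.8 to 66.6 CPM in pericardium libraries. Among them, the TNNI1 copy ENSDARG00000052708 had 20.3 to 92.4 CPM in proepicardium libraries and 8.25 and 8.57 CPM in pericardium libraries. The other copy, ENSDARG00000000474, was at 0 in every proepicardium and pericardium library, and had 1.49, 0 and 0.244 CPM in the heart tube libraries. The 10 epidermal markers summed to 206 to 5442 CPM in heart tube libraries, with the highest value in heart tube 1, 10798 to 41566 CPM in proepicardium libraries, with the lowest value in proepicardium 3, and 47704 to 66595 CPM in pericardium libraries. The proepicardial marker wt1b was at 0, 0.0691 and 0 CPM in heart tube libraries, 1.01, 0.995, 2.58 and 0.772 CPM in proepicardium libraries and 0.100 and 0.608 CPM in pericardium libraries. The 5 proepicardial and epicardial markers include podxl and ALDH1A2. They summed to 162 to 310.03 CPM in heart tube libraries, 31.7 to 133 CPM in proepicardium libraries and 18.2 to 21.4 CPM in pericardium libraries. As a list they were thus higher in the proepicardium than in the pericardium, but highest in the heart tube. The labels do not say that the pools came from separate clutches, so p-values measure the spread between these pooled samples. In such bulk samples fewer cells of a type and less RNA per cell cannot be told apart.

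Heart muscle calcium genes, RYR2, pln1, atp2a2a, CASQ2 and trdn among them, stood high in the heart tube. Members called lower there in both comparisons included ITPR3, a copy of ITPR1, ATP2A3, camk2d1, asph and S100 genes. Of the 88 members that passed the filter on low counts, 23 were called higher in the heart tube than in the proepicardium (26.1%, against 12.7% of the 17003 genes tested) and 18 were called lower (20.5%, against 16.8%). A gene is called where edgeR's quasi-likelihood test gave it an adjusted p-value (Benjamini-Hochberg, all genes) below 0.05. Against the pericardium 25 members were called higher (28.4%, against 11.0%) and 18 lower (20.5%, against 16.1%). The shares of members called lower were near those of all genes. The median log2 fold change of the members was 0.19 over the proepicardium, against -0.17 for all genes tested, and 0.31 over the pericardium, against -0.09. Both comparisons use the same 3 heart tube libraries, so their values are given side by side and not as separate evidence. The other 20 members did not pass the filter, and a member may have passed it through the tissue where it is high, so these counts describe the members that could be tested. The heat map of the called genes shows their levels by library.

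**Figure D1:**
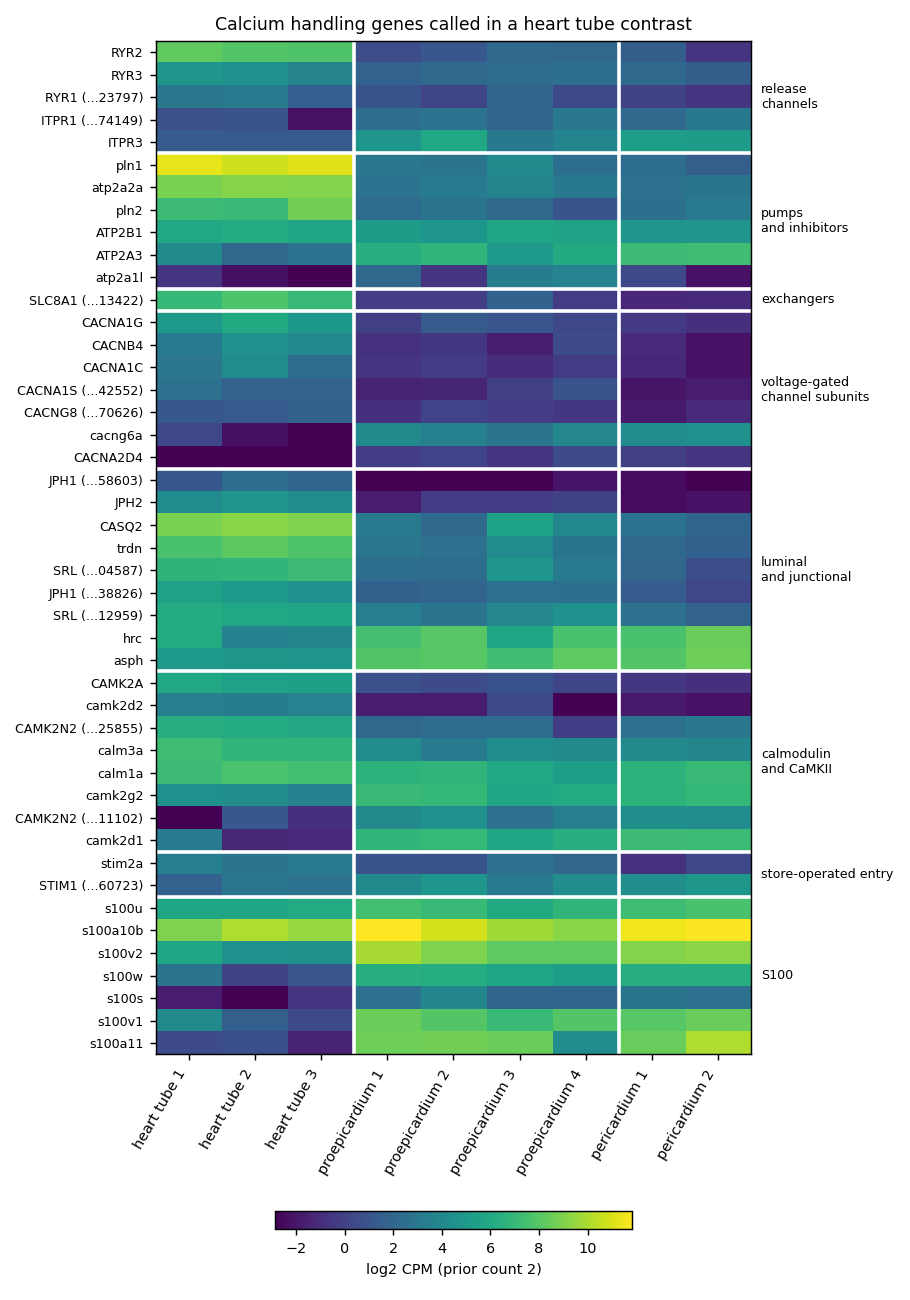
Level (log2 CPM, prior count 2, colour) of every member called in at least 1 heart tube comparison (rows, grouped by role) in the 9 libraries (columns). Endings of identifiers tell copies with one symbol apart. RYR2, pln1, atp2a2a, CASQ2 and trdn are bright in the 3 heart tube libraries, and asph, camk2d1, ATP2A3, s100a11, s100s, s100v1, s100v2 and s100w are darker there than in every other library.

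Among the release channels, the cardiac ryanodine receptor RYR2 marked the heart tube. RYR2 had 305, 238 and 217 CPM in the heart tube libraries, 1.41, 2.07, 4.23 and 4.08 CPM in the proepicardium libraries and 2.61 and 0.521 CPM in the pericardium libraries. The lowest heart tube library was far above the highest of the other tissues. The log2 fold change was 6.43 ± 0.57 over the proepicardium (adjusted p = 2.15e-05) and 7.28 ± 0.81 over the pericardium (adjusted p = 0.000123). RYR3, another ryanodine receptor, had 27.7, 22.4 and 13.0 CPM in the heart tube libraries, 3.27, 4.31, 5.09 and 5.74 CPM in the proepicardium libraries and 4.31 and 2.60 CPM in the pericardium libraries, with no overlap between the heart tube and either tissue. On the log2 scale the difference was 2.20 ± 0.38 over the proepicardium (adjusted p = 0.00140) and 2.59 ± 0.50 over the pericardium (adjusted p = 0.00294). The RYR1 copy ENSDARG00000023797, named for the ryanodine receptor of skeletal muscle, had 7.73, 8.63 and 2.69 CPM in the heart tube libraries, 1.8, 0.995, 3.62 and 1.21 CPM in the proepicardium libraries and 0.902 and 0.521 CPM in the pericardium libraries. It was called higher than in the pericardium (log2 fold change 3.12 ± 0.83, adjusted p = 0.0161) and was just outside the threshold against the proepicardium (log2 fold change 1.72 ± 0.60, adjusted p = 0.0503). That call was lost without pericardium 1 or 2 in turn (log2 fold change 2.88 to 3.75, adjusted p 0.0719 to 0.139), and the proepicardium comparison passed without proepicardium 3, at 2.22, and without heart tube 3, at 2.09. The other RYR1 copy, ENSDARG00000011422, was not called in either comparison. Of all reads on the 4 ryanodine receptor genes, RYR2 took 88.2% to 93.2% in the heart tube libraries, 19.1% to 33.0% in the proepicardium libraries and 8.96% to 31.7% in the pericardium libraries.

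Of the 4 inositol trisphosphate receptor genes, ITPR3 and 1 copy of ITPR1 were called lower in the heart tube in both comparisons. They were the only 2 of the 8 release channel genes called lower (25%, against 16.8% and 16.1% of all genes). ITPR3 had 2.54, 2.35 and 2.28 CPM in the heart tube libraries, 28.4, 62.5, 8.22 and 13.7 CPM in the proepicardium libraries and 41.3 and 38.6 CPM in the pericardium libraries. All 3 heart tube libraries lay under every other library. Its fitted log2 difference was -3.55 ± 0.65 over the proepicardium (adjusted p = 0.00212) and -4.06 ± 0.70 over the pericardium (adjusted p = 0.00183). The ITPR1 copy ENSDARG00000074149 had 1.55, 1.73 and 0.0815 CPM in the heart tube libraries, 5.13, 6.38, 3.68 and 8.05 CPM in the proepicardium libraries and 4.26 and 8.25 CPM in the pericardium libraries, again with no overlap. It was called lower, at log2 fold change -2.34 ± 0.73, adjusted p = 0.0306 over the proepicardium and log2 fold change -2.45 ± 0.80, adjusted p = 0.0410 over the pericardium. The first call was lost without proepicardium 1, 2 or 4 in turn (log2 fold change -2.40 to -2.11, adjusted p 0.0502 to 0.0732), and the second without proepicardium 1, 2 or 4, heart tube 2 or pericardium 1 or 2 in turn (log2 fold change -2.76 to -1.83, adjusted p 0.0569 to 0.287). ITPR2 was not called (log2 fold change -2.62 ± 1.04, adjusted p = 0.0827 over the proepicardium, -2.98 ± 1.14, adjusted p = 0.0784 over the pericardium), and heart tube 2 held most of its heart tube reads. Without that library ITPR2 passed the threshold at -4.63 over the proepicardium and -4.96 over the pericardium. The 4 receptor genes together summed to 5.84 ± 2.54 CPM in heart tube libraries (SD, n = 3), 43.0 ± 29.5 CPM in proepicardium libraries (n = 4) and 57.3 ± 4.57 CPM in pericardium libraries (n = 2). Epidermal markers were lower in the heart tube as well, with 9 of 10 called lower in each comparison. Their part in the receptor levels was not tested.

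Of the pumps, atp2a2a, a copy of the cardiac SERCA gene, stood high in the heart tube. It had 474, 573 and 542 CPM in the heart tube libraries, 6.53, 8.87, 13.2 and 8.39 CPM in the proepicardium libraries and 6.01 and 7.12 CPM in the pericardium libraries. No library of another tissue came near the heart tube range. In edgeR the log2 fold change was 5.84 ± 0.34 over the proepicardium (adjusted p = 5.83e-06) and 6.33 ± 0.48 over the pericardium (adjusted p = 2.80e-05). The second copy, ATP2A2, had 57.4, 53.9 and 40.3 CPM in the heart tube libraries, 37.6, 33.3, 30.7 and 56.2 CPM in the proepicardium libraries and 32.9 and 45.7 CPM in the pericardium libraries, and the ranges of the tissues overlapped. It was not called (log2 fold change 0.36 ± 0.30, adjusted p = 0.402 over the proepicardium, 0.36 ± 0.36, adjusted p = 0.513 over the pericardium). ATP2A3, a SERCA isoform of non-muscle cells in mammals, had 16.8, 4.21 and 6.52 CPM in the heart tube libraries, 81.2, 105, 32.4 and 66.4 CPM in the proepicardium libraries and 145 and 157 CPM in the pericardium libraries. This gave a log2 fold change of -2.95 ± 0.54 over the proepicardium (adjusted p = 0.00186) and -4.03 ± 0.60 over the pericardium (adjusted p = 0.000665), with every heart tube library under every other library. The epidermal marker sum had the same highest heart tube library, heart tube 1, and the same lowest proepicardium library, proepicardium 3. Its part in the ATP2A3 level was not tested.

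The atp2a reads divided differently by tissue, as the plot of family read shares shows. Shares are of reads, not corrected for gene length, so a gene's share is set against its own share in the other tissues and not against other genes. The gene atp2a2a took 76.7%, 90.5% and 91.5% of all atp2a reads in the heart tube libraries, 3.15% to 6.02% in the proepicardium libraries and 2.88% and 3.09% in the pericardium libraries. ATP2A3 took 0.665% to 2.72% in heart tube libraries, 14.8% to 54.8% in proepicardium libraries and 68.0% and 69.3% in pericardium libraries. The family total was 615 ± 20.3 CPM in heart tube libraries (SD, n = 3), 214 ± 39.0 CPM in proepicardium libraries (n = 4) and 219.6 ± 15.4 CPM in pericardium libraries (n = 2). Reads of near-identical copies may be divided or dropped by the counting program, and whether it used strand is not given in the sources used here, so levels of single copies are uncertain in that respect.

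**Figure D2:**
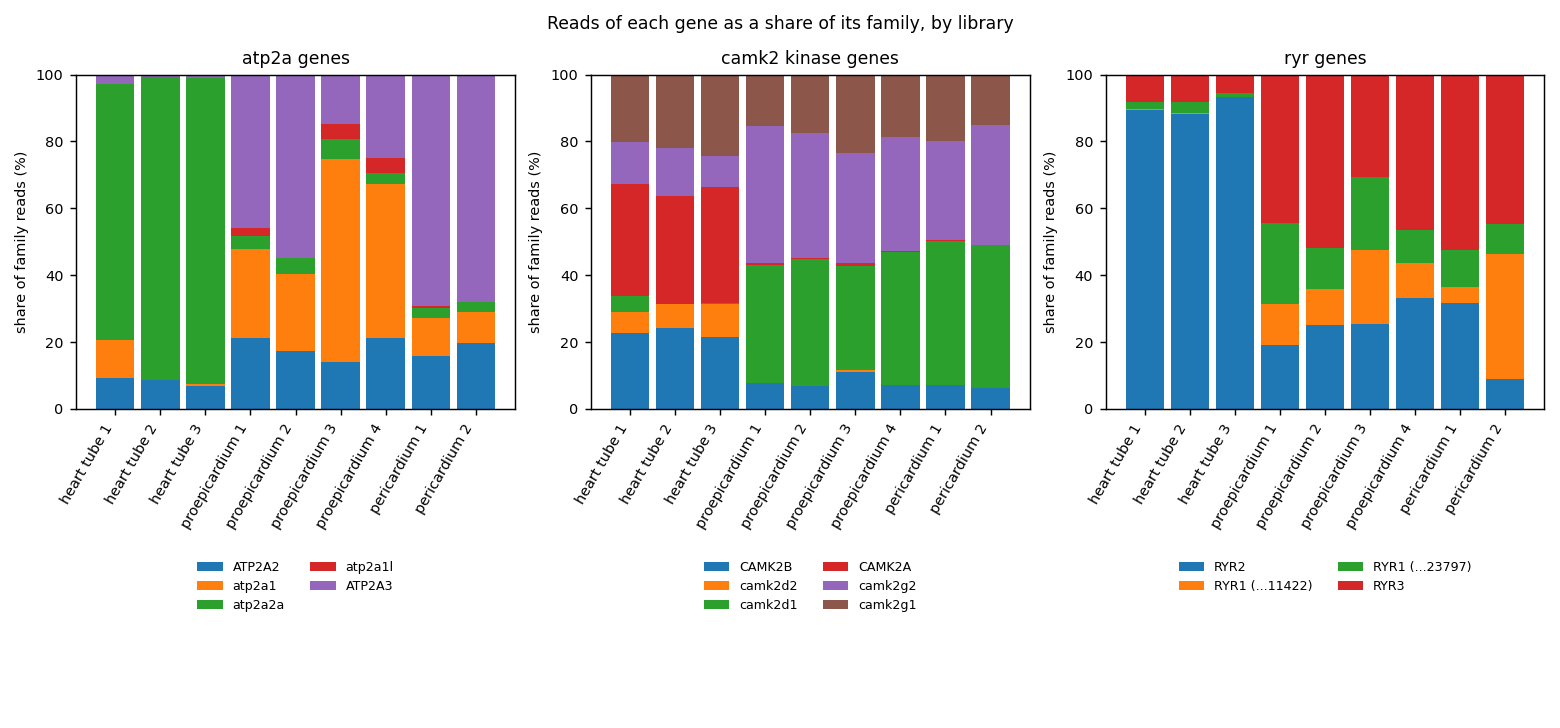
Share of a family's reads (%) taken by each SERCA (atp2a), CaM kinase II and ryanodine receptor gene, as stacked bars for the 9 libraries. The shares of atp2a2a, RYR2 and CAMK2A are larger in every heart tube library than in any other library, and those of ATP2A3, camk2d1 and camk2g2 are smaller.

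Both genes listed as phospholamban, the inhibitor of SERCA, followed atp2a2a. pln1 had 2492, 1745 and 2342 CPM in the heart tube libraries, 8.0, 6.88, 17.7 and 5.30 CPM in the proepicardium libraries and 5.21 and 2.87 CPM in the pericardium libraries. These values put the heart tube mean 231-fold over the proepicardium mean and 543-fold over the pericardium mean. The fitted log2 difference was 7.85 ± 0.52 over the proepicardium (adjusted p = 7.27e-06) and 9.07 ± 0.76 over the pericardium (adjusted p = 3.94e-05). pln2 had 145, 129 and 392 CPM in the heart tube libraries, 4.73, 6.71, 4.54 and 1.77 CPM in the proepicardium libraries and 5.71 and 8.86 CPM in the pericardium libraries, with the highest value in heart tube 3. The heart tube differed by a log2 fold change of 5.64 ± 0.54 over the proepicardium (adjusted p = 3.96e-05) and 4.93 ± 0.71 over the pericardium (adjusted p = 0.000550). Among the calcium pumps of the cell membrane, ATP2B1 was called higher than in the pericardium (log2 fold change 1.17 ± 0.36, adjusted p = 0.0306) but not than in the proepicardium (0.58 ± 0.29, adjusted p = 0.155). The first call was lost without heart tube 2 or pericardium 1 or 2 in turn (log2 fold change 1.17 to 1.37, adjusted p 0.0704 to 0.187). Neither atp2b4 nor the Golgi pump gene ATP2C1 was called.

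SLC8A1 (ENSDARG00000013422), a copy of the cardiac sodium-calcium exchanger, was high in the heart tube. It had 121, 222 and 129 CPM in the heart tube libraries, 0.732, 0.746, 3.13 and 0.662 CPM in the proepicardium libraries and 0.301 and 0.347 CPM in the pericardium libraries. The groups did not overlap, and proepicardium 3 was the highest library outside the heart tube. The log2 fold change was 6.86 ± 0.59 over the proepicardium (adjusted p = 2.05e-05) and 8.90 ± 0.92 over the pericardium (adjusted p = 8.49e-05). The second SLC8A1 copy, ENSDARG00000043406, had 0.331, 0.0691 and 0 CPM in the heart tube libraries, 0.225, 1.66, 0 and 0.331 CPM in the proepicardium libraries and 0.551 and 1.91 CPM in the pericardium libraries and was not called (log2 fold change -1.88 ± 1.44, adjusted p = 0.361 over the proepicardium, -3.03 ± 1.60, adjusted p = 0.192 over the pericardium). The plot of cardiac genes shows only genes called higher in the heart tube in both comparisons. Their shared separation follows from that choice and is not separate evidence. Other textbook cardiac genes, ATP2A2 and cacnb2a among them, were not called, and asph, hrc and camk2d1 were called lower.

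**Figure D3:**
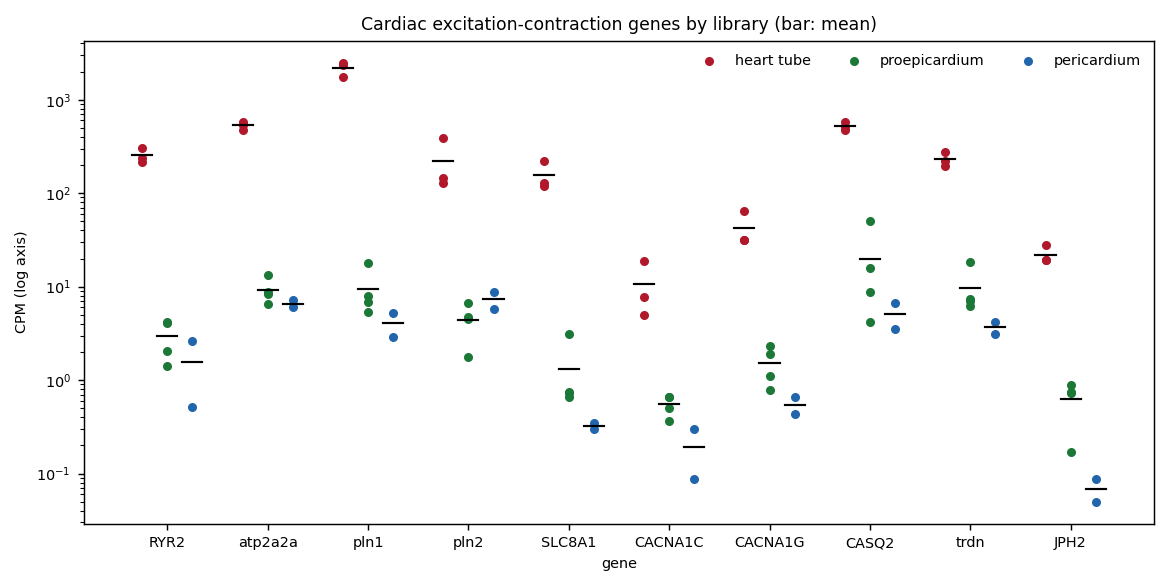
Level (CPM, log axis) of 10 cardiac excitation-contraction genes in each library, coloured by tissue (left to right: heart tube, proepicardium, pericardium), with the tissue mean as a bar. SLC8A1 is the copy ENSDARG00000013422. All 10 genes shown were called higher in the heart tube in both comparisons, and cardiac genes not called or called lower are left out. For each gene all 3 heart tube points lie above all other points, and the proepicardium mean lies above the pericardium mean for every gene but pln2.

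The channels that carry calcium into the heart muscle cell were called higher in the heart tube against both tissues. CACNA1C, the pore of the cardiac L-type channel, had 7.73, 19 and 4.97 CPM in the heart tube libraries, 0.507, 0.663, 0.368 and 0.662 CPM in the proepicardium libraries and 0.301 and 0.0868 CPM in the pericardium libraries, and the log2 fold change was 4.26 ± 0.61 over the proepicardium (adjusted p = 0.000437) and 5.61 ± 0.90 over the pericardium (adjusted p = 0.00101). CACNA1G, the pore of a T-type channel linked to pacemaking, had 31.9, 65.3 and 31.4 CPM in the heart tube libraries, 0.789, 2.32, 1.90 and 1.1 CPM in the proepicardium libraries and 0.651 and 0.434 CPM in the pericardium libraries. On the log2 scale the difference was 4.80 ± 0.46 over the proepicardium (adjusted p = 3.81e-05) and 6.25 ± 0.68 over the pericardium (adjusted p = 0.000110). For the auxiliary subunit CACNB4 the log2 fold change was 4.70 ± 0.65 over the proepicardium (adjusted p = 0.000348) and 6.01 ± 0.95 over the pericardium (adjusted p = 0.000945), from 8.78, 23.1 and 15.7 CPM in the heart tube libraries, 0.451, 0.580, 0.184 and 1.32 CPM in the proepicardium libraries and 0.351 and 0.0868 CPM in the pericardium libraries. In none of these 3 genes did the heart tube overlap another tissue. cacnb2a, a copy of the beta subunit gene known from the mammalian heart, had 1.22, 4.35 and 1.55 CPM in the heart tube libraries, 0.507, 1.16, 0.613 and 1.43 CPM in the proepicardium libraries and 0.701 and 0.347 CPM in the pericardium libraries. Heart tube 1 lay inside the proepicardium range, and the gene was not called (log2 fold change 1.37 ± 0.72, adjusted p = 0.179 over the proepicardium, 2.13 ± 0.93, adjusted p = 0.115 over the pericardium).

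Other subunits were low or weakly supported. The CACNA1S copy ENSDARG00000042552, named for the L-type pore of skeletal muscle, had 6.30, 3.18 and 3.26 CPM in the heart tube libraries, 0.225, 0.249, 0.797 and 1.77 CPM in the proepicardium libraries and 0.100 and 0.174 CPM in the pericardium libraries. Its fitted log2 difference was 2.52 ± 0.76 over the proepicardium (adjusted p = 0.0274) and 4.92 ± 1.17 over the pericardium (adjusted p = 0.00913). The first call was lost without proepicardium 1, 2 or 3 or heart tube 1 in turn (log2 fold change 2.09 to 2.52, adjusted p 0.0533 to 0.0889) and the second without pericardium 1 or 2 in turn (log2 fold change 4.72 to 5.37, adjusted p 0.0671 to 0.0921). With 200 reads in the heart tube and 4 in the pericardium, the ratio of the pooled levels was 35.1 (95% exact interval 13.5 to 130.02). Such intervals, here and below, cover counting error only, not the spread between libraries. CACNG8 (ENSDARG00000070626), a member of the channel gamma subunit family, was called higher at log2 fold change 1.92 ± 0.65, adjusted p = 0.0435 over the proepicardium and log2 fold change 3.32 ± 0.91, adjusted p = 0.0186 over the pericardium. Its first call was lost without proepicardium 1, 3 or 4, heart tube 1, 2 or 3 or pericardium 1 or 2 in turn (log2 fold change 1.74 to 2.01, adjusted p 0.0524 to 0.110) and the second without pericardium 1 or 2 in turn (log2 fold change 2.97 to 4.03, adjusted p 0.0895 to 0.169).

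A pair of voltage-gated subunit genes were called lower in the heart tube. cacng6a, a gamma subunit, had 1.1, 0.0691 and 0 CPM in the heart tube libraries, 17.2, 11.8, 6.75 and 15 CPM in the proepicardium libraries and 18.2 and 22.6 CPM in the pericardium libraries. In edgeR the log2 fold change was -4.87 ± 0.89 over the proepicardium (adjusted p = 0.00217) and -5.56 ± 0.95 over the pericardium (adjusted p = 0.00176), and without heart tube 1 these values were -8.12 and -8.76. CACNA2D4, an alpha2delta subunit, had 0 counts in the 3 heart tube libraries, 0.732, 0.912, 0.491 and 1.32 CPM in proepicardium libraries and 0.802 and 0.521 CPM in pericardium libraries. Taking 3 counts per heart tube library as the limit, its level was at least 4.20-fold lower than in the proepicardium and at least 3.21-fold lower than in the pericardium. Both were called (adjusted p = 0.00685 and 0.0121 in edgeR), the second not without pericardium 1 (log2 fold change -5.78). Of the 32 members in this role, 18 passed the filter, 5 were called higher and 2 lower in each comparison. These are 27.8% higher, against 12.7% (proepicardium) and 11.0% (pericardium) of all genes, and 11.1% lower, a share below the 16.8% and 16.1% of all genes.

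Inside and around the sarcoplasmic reticulum, 7 of the 15 members tested were called higher in the heart tube and 2 lower, in both comparisons. The share called higher was 46.7%, against 12.7% and 11.0% of all genes, and the share called lower was 13.3%, below the 16.8% and 16.1% of all genes. CASQ2, cardiac calsequestrin, had 477, 582 and 508 CPM in the heart tube libraries, 8.79, 4.23, 50.2 and 15.8 CPM in the proepicardium libraries and 6.61 and 3.56 CPM in the pericardium libraries. Proepicardium 3 was several times above the other proepicardium libraries and still under the heart tube. This gave a log2 fold change of 4.72 ± 0.74 over the proepicardium (adjusted p = 0.00105) and 6.67 ± 1.1 over the pericardium (adjusted p = 0.00166). trdn, triadin, which ties calsequestrin to the release channel, had 195, 278 and 223 CPM in the heart tube libraries, 7.32, 6.22, 18.3 and 6.95 CPM in the proepicardium libraries and 4.21 and 3.13 CPM in the pericardium libraries. The fitted log2 difference was 4.57 ± 0.43 over the proepicardium (adjusted p = 3.38e-05) and 5.97 ± 0.62 over the pericardium (adjusted p = 8.70e-05). The tissues did not overlap for either gene in the heart tube comparisons.

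Junctophilins, which hold the reticulum close to the cell membrane, were called in 3 genes. JPH2, the main cardiac form in mammals, had 19.1, 27.7 and 19.1 CPM in the heart tube libraries, 0.169, 0.746, 0.736 and 0.883 CPM in the proepicardium libraries and 0.0501 and 0.0868 CPM in the pericardium libraries. Its log2 fold change over the proepicardium was 5.14 ± 0.51 (adjusted p = 4.77e-05). Over the pericardium, where 2 reads stood against 980 in the heart tube, the ratio was 344 (95% exact interval 94.9 to 2843, adjusted p = 9.21e-05 in edgeR). JPH1 (ENSDARG00000038826) had 46.0, 33.6 and 23.9 CPM in the heart tube libraries, 3.15, 3.73, 6.01 and 5.63 CPM in the proepicardium libraries and 2.56 and 1.04 CPM in the pericardium libraries. The heart tube differed by a log2 fold change of 2.90 ± 0.40 over the proepicardium (adjusted p = 0.000348) and 4.23 ± 0.57 over the pericardium (adjusted p = 0.000355). The sparse copy JPH1 (ENSDARG00000058603) held 157 reads in the heart tube, 1 in the proepicardium and 1 in the pericardium, with ratios of 193 (interval 34.2 to 7676) and 110.2 (interval 19.5 to 4379). Both were called (adjusted p = 0.000753 and 0.00520), the second not without pericardium 2 (log2 fold change 6.0).

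The 2 copies of SRL, sarcalumenin, a calcium-binding protein of the reticulum lumen, were called higher as well. SRL (ENSDARG00000104587) had 104, 112 and 146 CPM in the heart tube libraries, 5.24, 4.97, 29.1 and 8.61 CPM in the proepicardium libraries and 3.86 and 1.48 CPM in the pericardium libraries. The log2 fold change was 3.33 ± 0.62 over the proepicardium (adjusted p = 0.00255) and 5.47 ± 0.92 over the pericardium (adjusted p = 0.00174). SRL (ENSDARG00000112959) had 71.6, 61.7 and 55.8 CPM in the heart tube libraries, 10.4, 6.63, 15.1 and 23.1 CPM in the proepicardium libraries and 5.86 and 3.39 CPM in the pericardium libraries. On the log2 scale the difference was 2.20 ± 0.40 over the proepicardium (adjusted p = 0.00176) and 3.76 ± 0.56 over the pericardium (adjusted p = 0.000629). The groups did not overlap for either copy.

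CASQ1 (ENSDARG00000018105), a second calsequestrin copy, had 7.29, 4.83 and 2.44 CPM in the heart tube libraries, 1.30, 3.65, 10.4 and 3.53 CPM in the proepicardium libraries and 2.91 and 2.43 CPM in the pericardium libraries and was not called (log2 fold change 0.04 ± 0.64, adjusted p = 0.969 over the proepicardium, 0.86 ± 0.79, adjusted p = 0.477 over the pericardium). Members of this role called lower were asph and hrc. asph, which encodes an aspartyl/asparaginyl beta-hydroxylase and in mammals also junctin, had 33.6, 30.0 and 28.4 CPM in the heart tube libraries, 227, 261, 159 and 292 CPM in the proepicardium libraries and 242 and 386 CPM in the pericardium libraries. Its fitted log2 difference was -2.94 ± 0.33 over the proepicardium (adjusted p = 0.000100) and -3.35 ± 0.37 over the pericardium (adjusted p = 0.000114). The second copy, ASPH (ENSDARG00000078703), was not called (log2 fold change 0.18 ± 0.42, adjusted p = 0.784 over the proepicardium). hrc, named for a histidine-rich calcium-binding protein of the mammalian sarcoplasmic reticulum, had 68.5, 11.7 and 14.7 CPM in the heart tube libraries, 175, 256, 55.5 and 197 CPM in the proepicardium libraries and 196 and 360.1 CPM in the pericardium libraries. In edgeR the log2 fold change was -2.43 ± 0.71 over the proepicardium (adjusted p = 0.0258) and -3.13 ± 0.79 over the pericardium (adjusted p = 0.0144). Heart tube 1 lay above proepicardium 3. The first call was lost without proepicardium 1, 2 or 4 or heart tube 2 or 3 in turn (log2 fold change -2.42 to -1.96, adjusted p 0.0589 to 0.0794), and without heart tube 1 the value was -3.69. The second call was lost without pericardium 2 (log2 fold change -2.53). The epidermal marker sum was also lower in the heart tube than in the other tissues. Both genes, like that sum, were lowest among proepicardium libraries in proepicardium 3. Within the heart tube the sum was 5442, 206 and 289 CPM. There hrc was far highest in heart tube 1, while asph differed little between libraries. The part of epidermal RNA in these levels was not tested.

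Calcium/calmodulin-dependent kinase II, which modifies ryanodine receptors and phospholamban in heart muscle, differed in its gene copies between the tissues. CAMK2A had 59.4, 45.7 and 43.7 CPM in the heart tube libraries, 1.58, 1.24, 1.66 and 0.993 CPM in the proepicardium libraries and 0.551 and 0.434 CPM in the pericardium libraries. This gave a log2 fold change of 5.15 ± 0.33 over the proepicardium (adjusted p = 7.06e-06) and 6.61 ± 0.49 over the pericardium (adjusted p = 2.64e-05). camk2d2 had 11.3, 10.1 and 12.5 CPM in the heart tube libraries, 0.169, 0.166, 1.23 and 0 CPM in the proepicardium libraries and 0.150 and 0.0868 CPM in the pericardium libraries. Its log2 fold change over the proepicardium was 4.73 ± 0.83 (adjusted p = 0.00151), and over the pericardium, with 504 reads against 4, the ratio was 88.4 (95% exact interval 34.3 to 326, adjusted p = 0.00336). The heart tube did not overlap another tissue in either gene.

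Its paralog camk2d1 went the other way, with 8.89, 0.276 and 0.326 CPM in the heart tube libraries, 111, 125, 54.0 and 80.7 CPM in the proepicardium libraries and 145 and 144 CPM in the pericardium libraries. Heart tube 1 held most of the heart tube reads and still lay under every other library. Like the epidermal marker sum, camk2d1 was highest among heart tube libraries in heart tube 1 and lowest among proepicardium libraries in proepicardium 3. The part of epidermal RNA in its level was not tested. The fitted log2 difference was -4.84 ± 1.13 over the proepicardium (adjusted p = 0.0107) and -5.48 ± 1.21 over the pericardium (adjusted p = 0.00913). Without heart tube 1 the values were -8.23 and -8.83, and the pericardium call was lost without pericardium 1 or 2 in turn (log2 fold change -5.37 to -5.28, adjusted p 0.0640 to 0.0683). camk2g2 had 22.4, 20.6 and 11.9 CPM in the heart tube libraries, 130.2, 123, 57.0 and 69.4 CPM in the proepicardium libraries and 100.4 and 121 CPM in the pericardium libraries. The heart tube differed by a log2 fold change of -2.37 ± 0.39 over the proepicardium (adjusted p = 0.00106) and -2.60 ± 0.43 over the pericardium (adjusted p = 0.00128). Of all reads on the 6 CaM kinase II genes, CAMK2A took 32.1% to 34.6% in heart tube libraries, 0.377% to 0.953% in proepicardium libraries and 0.128% and 0.163% in pericardium libraries. The share of camk2d1 was 0.194% to 4.99% in heart tube libraries, 31.1% to 39.7% in proepicardium libraries and 42.7% and 42.9% in pericardium libraries. The family total was 149 ± 26.7 CPM in heart tube libraries (SD, n = 3), 256 ± 78.5 CPM in proepicardium libraries (n = 4) and 338 ± 0.232 CPM in pericardium libraries (n = 2).

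The copies of CAMK2N2, an inhibitor of the kinase, also parted. CAMK2N2 (ENSDARG00000025855) had 77.7, 73.1 and 64.4 CPM in the heart tube libraries, 4.06, 4.73, 4.97 and 0.772 CPM in the proepicardium libraries and 6.06 and 7.81 CPM in the pericardium libraries. The log2 fold change was 4.28 ± 0.48 over the proepicardium (adjusted p = 9.44e-05) and 3.37 ± 0.61 over the pericardium (adjusted p = 0.00209). CAMK2N2 (ENSDARG00000111102) had 0, 2.14 and 0.407 CPM in the heart tube libraries, 16.7, 23.5, 6.07 and 10.4 CPM in the proepicardium libraries and 21.6 and 18.3 CPM in the pericardium libraries. On the log2 scale the difference was -4.07 ± 0.99 over the proepicardium (adjusted p = 0.0112) and -4.56 ± 1.06 over the pericardium (adjusted p = 0.00999). Without heart tube 2 the first of these values for the second copy was -6.20, and its pericardium call was lost without pericardium 1 (log2 fold change -4.29).

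Calmodulin, the calcium sensor encoded by several genes in vertebrates, differed less. calm3a had 155, 109 and 108 CPM in the heart tube libraries, 18.3, 9.20, 19.9 and 17.8 CPM in the proepicardium libraries and 16.9 and 14.5 CPM in the pericardium libraries, with no overlap. Its fitted log2 difference was 2.93 ± 0.32 over the proepicardium (adjusted p = 8.67e-05) and 2.98 ± 0.43 over the pericardium (adjusted p = 0.000533). calm1a had 147, 201 and 163 CPM in the heart tube libraries, 99.1, 105, 62.1 and 40.1 CPM in the proepicardium libraries and 101 and 128 CPM in the pericardium libraries. It was called higher than in the proepicardium (log2 fold change 1.15 ± 0.35, adjusted p = 0.0269), a call lost without heart tube 2 or 3 in turn (log2 fold change 1.07 to 1.19, adjusted p 0.0595 to 0.0742), and not called against the pericardium (0.57 ± 0.43, adjusted p = 0.367). The other 4 calmodulin genes were not called in either comparison, and each overlapped between the heart tube and the proepicardium. CALM2 had 699, 738 and 1042 CPM in the heart tube libraries, 901, 624, 709 and 460.0 CPM in the proepicardium libraries and 818 and 819 CPM in the pericardium libraries, and calm2a had 285, 412 and 529 CPM in the heart tube libraries, 249, 200.3, 303 and 209.6 CPM in the proepicardium libraries and 261 and 291 CPM in the pericardium libraries. calm3b had 489, 731 and 1100.0 CPM in the heart tube libraries, 1815, 623, 841 and 630.0 CPM in the proepicardium libraries and 1116 and 1049 CPM in the pericardium libraries, with its highest value in proepicardium 1. calm1b had 26.9, 46.2 and 45.0 CPM in the heart tube libraries, 57.1, 44.9, 15.1 and 20.5 CPM in the proepicardium libraries and 58.6 and 59.7 CPM in the pericardium libraries. The calmodulin genes together summed to 2342 ± 599 CPM in heart tube libraries (SD, n = 3), 2018 ± 783 CPM in proepicardium libraries (n = 4) and 2366 ± 6.13 CPM in pericardium libraries (n = 2). These totals differed by less than the spread within the heart tube or the proepicardium. calm3a took 3.61% to 8.62% of the reads in the heart tube, 0.573% to 1.29% in proepicardium libraries and 0.614% and 0.714% in pericardium libraries.

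For store-operated entry, 7 genes were tested. In the heart tube 1 was called lower than in the proepicardium (14.3%, against 16.8% of all genes). Against the pericardium 1 was called higher (14.3%, against 11.0%) and 1 lower (14.3%, against 16.1%). These shares were near those of all genes. STIM1 (ENSDARG00000060723), a calcium sensor of the reticulum, had 3.20, 7.18 and 6.44 CPM in the heart tube libraries, 16.8, 29.3, 8.77 and 20.1 CPM in the proepicardium libraries and 20.6 and 29.9 CPM in the pericardium libraries. In edgeR the log2 fold change was -1.74 ± 0.45 over the proepicardium (adjusted p = 0.0127) and -2.17 ± 0.50 over the pericardium (adjusted p = 0.00808). The second call was lost without pericardium 2 (log2 fold change -1.83). stim2a, another sensor gene, had 10.9, 6.84 and 9.45 CPM in the heart tube libraries, 1.69, 1.74, 6.20 and 3.86 CPM in the proepicardium libraries and 0.451 and 1.13 CPM in the pericardium libraries. It was called higher than in the pericardium (log2 fold change 3.55 ± 0.78, adjusted p = 0.00609), a call lost without pericardium 1 (log2 fold change 3.17), and not called against the proepicardium (1.42 ± 0.54, adjusted p = 0.0693), where it passed without proepicardium 3 at 1.88. The other sensor genes were not called, the STIM1 copy ENSDARG00000061560 with log2 fold change -1.91 ± 1.44, adjusted p = 0.353 over the proepicardium and -2.90 ± 1.61, adjusted p = 0.214 over the pericardium, and STIM2 with log2 fold change -0.36 ± 0.61, adjusted p = 0.698 and -0.66 ± 0.72, adjusted p = 0.560. Both ORAI1 copies and ORAI2, which encode the entry channel, were not called in either comparison. ORAI1 (ENSDARG00000011515) had 16.8, 11.9 and 6.03 CPM in the heart tube libraries, 5.41, 7.88, 5.09 and 8.50 CPM in the proepicardium libraries and 5.16 and 6.25 CPM in the pericardium libraries. Its log2 fold change was 0.79 ± 0.40 over the proepicardium and 1.03 ± 0.50 over the pericardium.

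S100 genes, which encode small calcium-binding proteins that are not part of the contraction machinery as a class, were called lower in the heart tube in 6 of the 11 tested against the proepicardium (54.5%, against 16.8% of all genes) and in 7 of 11 against the pericardium (63.6%, against 16.1%). None was called higher, where 12.7% and 11.0% of all genes were. s100a11 had 1.27, 1.52 and 0.244 CPM in the heart tube libraries, 385, 416, 357 and 20.3 CPM in the proepicardium libraries and 335 and 1063 CPM in the pericardium libraries, with the lowest value outside the heart tube in proepicardium 4. This gave a log2 fold change of -8.15 ± 1.25 over the proepicardium (adjusted p = 0.00133) and -9.40 ± 1.34 over the pericardium (adjusted p = 0.00105). s100v2 had 55.7, 24.0 and 24.8 CPM in the heart tube libraries, 945, 507, 294 and 291 CPM in the proepicardium libraries and 538 and 615 CPM in the pericardium libraries, with no overlap. The fitted log2 difference was -3.87 ± 0.54 over the proepicardium (adjusted p = 0.000348) and -4.05 ± 0.58 over the pericardium (adjusted p = 0.000506). s100w had 6.79, 0.829 and 1.96 CPM in the heart tube libraries, 85.6, 73.7, 54.4 and 39.3 CPM in the proepicardium libraries and 77.4 and 79.8 CPM in the pericardium libraries. The heart tube differed by a log2 fold change of -4.29 ± 0.65 over the proepicardium (adjusted p = 0.000748) and -4.60 ± 0.70 over the pericardium (adjusted p = 0.000857).

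The other S100 genes called lower were s100s (log2 fold change -5.0 ± 0.90, adjusted p = 0.00180 over the proepicardium, -4.96 ± 0.95, adjusted p = 0.00289 over the pericardium) and s100v1 (-5.08 ± 0.90, adjusted p = 0.00228 over the proepicardium, -5.40 ± 0.95, adjusted p = 0.00258 over the pericardium). The smaller difference of s100u (log2 fold change -1.01 ± 0.34, adjusted p = 0.0416 over the proepicardium, -1.54 ± 0.39, adjusted p = 0.0122 over the pericardium) lost its first call in 8 of the 9 fits that each left out 1 library, all but proepicardium 3 (heart tube 3 lay above proepicardium 3; log2 fold change -1.14 to -0.82, adjusted p 0.0626 to 0.136), and its second without heart tube 2 or pericardium 1 or 2 in turn (log2 fold change -1.54 to -1.29, adjusted p 0.0506 to 0.118). s100a10b, whose mammalian counterpart pairs with annexin A2, had 504, 1081 and 711 CPM in the heart tube libraries, 3630.5, 1791, 857 and 595 CPM in the proepicardium libraries and 2909 and 3421 CPM in the pericardium libraries. It was called lower than in the pericardium (log2 fold change -2.05 ± 0.65, adjusted p = 0.0361) and not than in the proepicardium (-1.17 ± 0.56, adjusted p = 0.145), where proepicardium 3 and 4 lay inside the heart tube range. The call was lost without proepicardium 2, heart tube 1 or 3 or pericardium 1 or 2 in turn (log2 fold change -2.00 to -1.78, adjusted p 0.0599 to 0.154). S100A1, named for an S100 protein of mammalian heart muscle, had 1.38, 0.553 and 0.244 CPM in the heart tube libraries, 0.563, 0.332, 0.859 and 0.883 CPM in the proepicardium libraries and 0.150 and 0.174 CPM in the pericardium libraries and was not called (log2 fold change 0.16 ± 0.86, adjusted p = 0.911 over the proepicardium, 2.13 ± 1.17, adjusted p = 0.208 over the pericardium). The epidermal marker sum lay in the same direction in each tissue, and its part in the S100 levels was not tested.

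**Figure D4:**
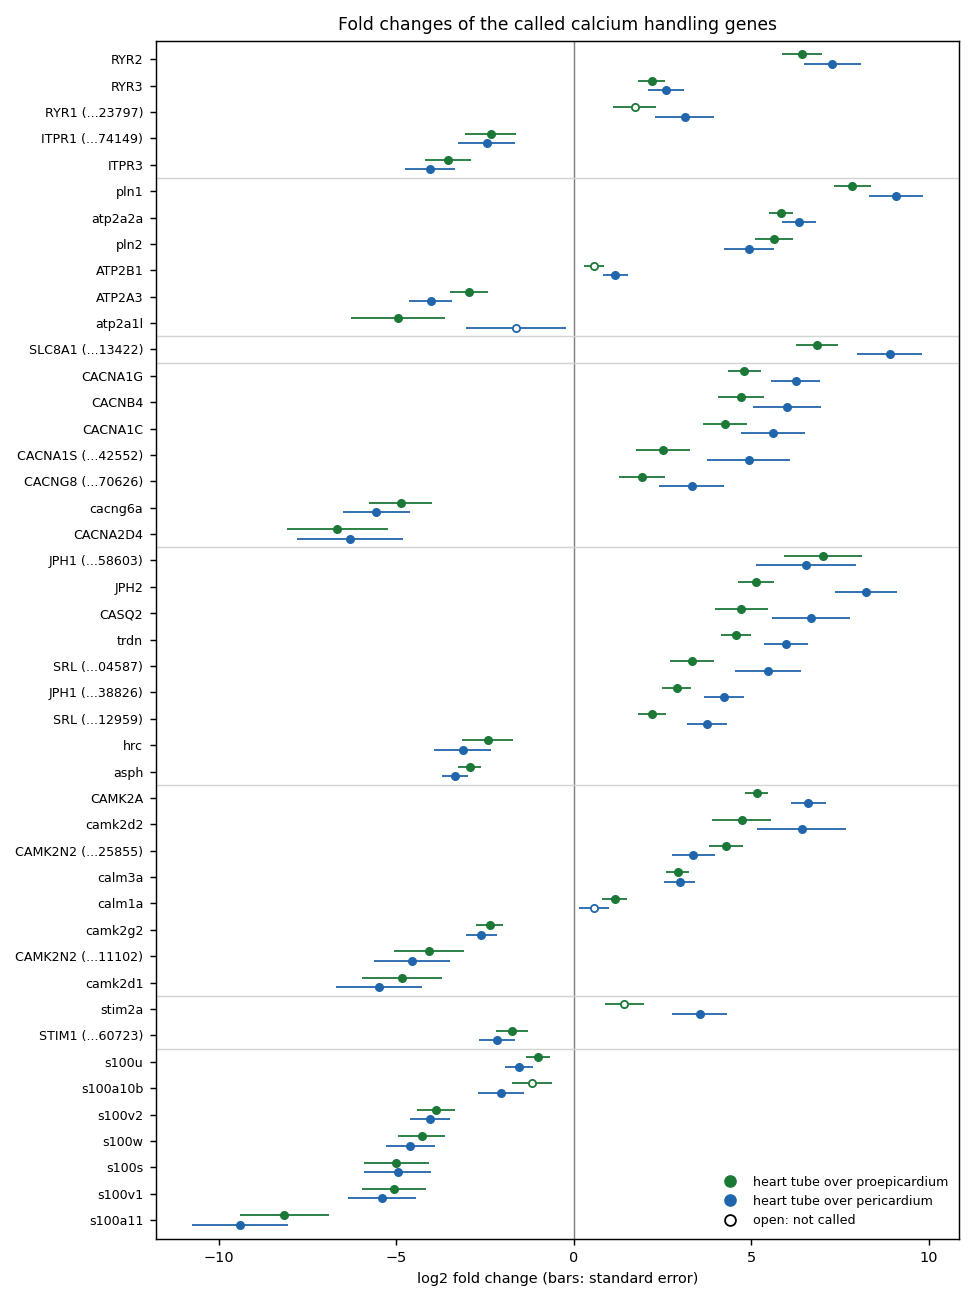
Log2 fold change with its standard error for each member called in at least 1 heart tube comparison, grouped by role, for heart tube over proepicardium (green) and heart tube over pericardium (blue). Filled points were called and open points were not. Points right of 0 are higher in the heart tube, where the genes called over the proepicardium run from calm1a at 1.15 to pln1 at 7.85, and every S100 point lies left of 0.

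One set of members rested on a single library. atp2a1, the SERCA gene of fast skeletal muscle, had 69.0, 1.73 and 3.75 CPM in the heart tube libraries, 47.1, 44.4, 133 and 123 CPM in the proepicardium libraries and 24.0 and 20.9 CPM in the pericardium libraries. Heart tube 1 was far above heart tube 2 and 3 and close to the proepicardium. CACNG1, the gamma subunit of the skeletal muscle channel, had 14.4, 0.207 and 0 CPM in the heart tube libraries, 12.1, 3.65, 28.0 and 19.5 CPM in the proepicardium libraries and 6.06 and 1.65 CPM in the pericardium libraries. CASQ1 (ENSDARG00000038716), named for skeletal muscle calsequestrin, had 8.17, 0.138 and 0.0815 CPM in the heart tube libraries, 2.65, 5.97, 5.40 and 5.63 CPM in the proepicardium libraries and 3.11 and 3.73 CPM in the pericardium libraries. With all libraries none of the 3 was called (log2 fold change -1.8 ± 1.08, adjusted p = 0.249 for atp2a1, -1.69 ± 1.39, adjusted p = 0.405 for CACNG1 and -0.79 ± 1.11, adjusted p = 0.636 for CASQ1 over the proepicardium). Over the pericardium their log2 fold changes were 0.15 ± 1.23, 0.33 ± 1.61 and -0.27 ± 1.30.

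Without heart tube 1 all 3 were called lower in the heart tube. They are grouped here for their high value in that library, so lower values without it follow from the choice. Calls were gained and lost over all genes as well. Over the proepicardium 5007 genes were called with all libraries and 4665 without heart tube 1, with 4108 called in both fits. For the members these numbers were 41, 44 and 38. Without heart tube 1 the total thus fell over all genes and rose for the members. Over the proepicardium atp2a1 was at -5.02, CACNG1 at -7.09 and CASQ1 at -5.36. Over the pericardium they were at -3.00, -4.99 and -4.79. Markers of fast skeletal muscle lay alike: the parvalbumin gene pvalb2 had 220.3, 2.83 and 1.87 CPM in the heart tube libraries, 219.7, 142, 839 and 941 CPM in the proepicardium libraries and 106 and 49.6 CPM in the pericardium libraries, and TNNT3 (ENSDARG00000068457), fast troponin T, had 28.6, 2.76 and 1.14 CPM in the heart tube libraries, 22.8, 23.6, 123 and 80.8 CPM in the proepicardium libraries and 19.8 and 9.29 CPM in the pericardium libraries. The sum of all 9 skeletal muscle marker identifiers was 3436, 5116 and 6279 CPM in the heart tube libraries, lowest in heart tube 1. It was 401 to 2241 CPM in proepicardium libraries and 195 to 335 CPM in pericardium libraries. ACTA1 and ckma were also high in the heart tube. There the ACTA1 copies were lowest in heart tube 1, and ckma differed little between libraries. ckmb stood at 6.54, 4.24 and 5.48 log2 CPM. The list as a whole thus did not follow the pattern of heart tube 1. No marker of the list was at 0 in every library of a tissue. The part of skeletal muscle RNA in these values was not tested. atp2a1l, next to atp2a1 in name, had 0.497, 0.0691 and 0 CPM in the heart tube libraries, 4.17, 0.497, 9.63 and 12.1 CPM in the proepicardium libraries and 1.15 and 0.0868 CPM in the pericardium libraries. It was called lower than in the proepicardium (log2 fold change -4.95 ± 1.32, adjusted p = 0.0165), a call lost without heart tube 2 (log2 fold change -4.53), and not called against the pericardium (-1.63 ± 1.40, adjusted p = 0.446).

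**Figure D5:**
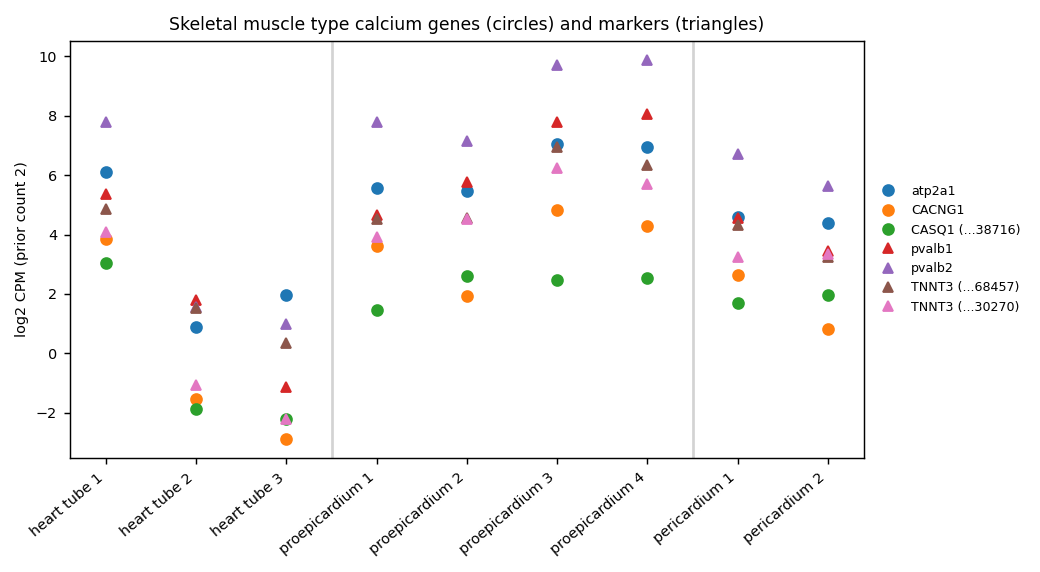
Level (log2 CPM, prior count 2) of 3 members named for skeletal muscle proteins (circles) and of 4 markers of fast skeletal muscle (triangles) in the 9 libraries, with grey lines dividing the tissues. Heart tube 1 lies near the proepicardium libraries for all 7 genes, and heart tube 2 and 3 lie several log2 units lower.

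Between the proepicardium and the pericardium no member was called. The share of all genes called by edgeR was 0% as well. At an unadjusted p-value under 0.05, 13 of the 88 members (14.8%) and 833 of all genes tested (4.90%) were found, and all 13 members were higher in the proepicardium. This number depended on the setting. It was 6 with replicate number as a second factor, 9 without proepicardium 3 and 20 with limma-voom. Over all genes these settings gave 351, 509 and 2438. DESeq2, limma-voom and limma on the deposited values also called 0 members, while over all genes they called 102, 7 and 3. Library ranges did not overlap for 16 members higher in the proepicardium (18.2%, against 7.65% of all genes) and for 6 members lower there (6.82%, against 7.75%). The median log2 fold change of the members was -0.12, against -0.02 for all genes. These values do not show that the tissues express the genes alike.

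The 5 members with the smallest p-values between these tissues were all called higher in the heart tube than in the pericardium. Both comparisons use the same 2 pericardium libraries, and a low level there raises both differences. The shared direction is therefore not separate evidence. JPH2 had 0.169, 0.746, 0.736 and 0.883 CPM in proepicardium libraries and 0.0501 and 0.0868 CPM in pericardium libraries. The pooled counts were 32 reads against 2, a ratio of 9.13 (95% exact interval 2.33 to 78.6). That interval covers counting error only, not the spread between libraries. In edgeR the unadjusted p was 0.00343, and JPH2 was not called. CAMK2A had 1.58, 1.24, 1.66 and 0.993 CPM in proepicardium libraries and 0.551 and 0.434 CPM in pericardium libraries (log2 fold change 1.46 ± 0.41, adjusted p = 0.741). SRL (ENSDARG00000112959) had a log2 fold change of 1.56 ± 0.49, stim2a 2.12 ± 0.72 and trdn 1.40 ± 0.48. The cardiomyocyte markers moved the same way: 7 of the 9 tested had an unadjusted p under 0.05 and all 7 were higher in the proepicardium, where proepicardium 3 held the largest marker sum. Without proepicardium 3 the log2 fold changes were 3.03 for JPH2, 1.40 for CAMK2A, 1.60 for SRL, 1.71 for stim2a and 0.95 for trdn. The part of heart muscle RNA in these values was not tested.

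Levels of the cardiac set outside the heart tube are given here beside those of the heart muscle markers. As a percent of the heart tube mean, the proepicardium held 0.432% for pln1, 0.836% for SLC8A1 (ENSDARG00000013422), 1.16% for RYR2, 1.74% for atp2a2a, 3.78% for CASQ2 and 4.18% for trdn. Over the 23 members called higher against it the median was 4.00% (range 0.432% to 44.9%), and over the 9 cardiomyocyte markers it was 0.545% (range 0.161% to 21.9%). In the pericardium the median was 1.83% over the 25 members called higher against it and 0.109% over the same markers. Of the 23 members, 12 had their highest proepicardium level in proepicardium 3 and none in proepicardium 1. Among all 2154 genes called higher in the same comparison, 867 had theirs in proepicardium 3 (40.3%) and 576 in proepicardium 1 (26.7%).

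Other genes of the pathway were taken from a list outside the symbol rule, with 65 identifiers, of which 59 were tested. In the heart tube 12 were called higher than in the proepicardium (20.3%, against 12.7% of all genes) and 5 lower (8.47%, against 16.8%). Against the pericardium 15 were called higher (25.4%, against 11.0%) and 5 lower (8.47%, against 16.1%). These 20 calls became 10 without pericardium 1 and 9 without pericardium 2. The shares called lower were below those of all genes. Among accessory proteins of the sarcoplasmic reticulum, FKBP1B, which binds the ryanodine receptor, had 155, 128 and 184 CPM in the heart tube libraries, 10.0, 5.31, 17.4 and 11.8 CPM in the proepicardium libraries and 6.91 and 5.12 CPM in the pericardium libraries. The log2 fold change was 3.81 ± 0.39 over the proepicardium (adjusted p = 5.32e-05) and 4.69 ± 0.55 over the pericardium (adjusted p = 0.000167). fkbp1ab (log2 fold change 2.57 ± 0.65, adjusted p = 0.0119 over the proepicardium) and DHRS7C (ENSDARG00000071877; 4.99 ± 0.64, adjusted p = 0.000224) were called higher too. Against the pericardium fkbp1ab lost its call without pericardium 1 (log2 fold change 4.52). TMEM38A, a potassium channel of the reticulum, was called higher than in the pericardium alone (log2 fold change 3.21 ± 0.78, adjusted p = 0.0111), a call lost without pericardium 1 or 2 in turn (log2 fold change 3.05 to 3.70, adjusted p 0.0671 to 0.116). Whether its difference from the heart tube differs between the other tissues was not tested.

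For mitochondrial calcium, the outer membrane channel genes VDAC1 and VDAC3 were called higher in the heart tube and the uniporter gene MCU lower. VDAC2 was not called over the pericardium (log2 fold change 0.95, adjusted p = 0.0513 in edgeR). Of 14 genes tested, 3 were called higher and 1 lower over the proepicardium (21.4% and 7.14%, against 12.7% and 16.8% of all genes). Over the pericardium 2 were higher and 1 lower (14.3% and 7.14%, against 11.0% and 16.1%). VDAC1 had 330.2, 305 and 455 CPM in the heart tube libraries, 56.4, 24.8, 105 and 57.9 CPM in the proepicardium libraries and 87.7 and 46.1 CPM in the pericardium libraries, and VDAC3 had 567, 562 and 644 CPM in the heart tube libraries, 142, 142, 190.3 and 103 CPM in the proepicardium libraries and 196 and 151 CPM in the pericardium libraries. They were called higher at 2.57 ± 0.44 (adjusted p = 0.00133) and 2.03 ± 0.29 (adjusted p = 0.000380) over the proepicardium on the log2 scale, and their pericardium calls were lost for VDAC1 without pericardium 2 (log2 fold change 2.11) and for VDAC3 without pericardium 2 (log2 fold change 1.65). MCU, the pore of the uniporter, was called lower (log2 fold change -1.44 ± 0.43, adjusted p = 0.0264 over the proepicardium, -2.19 ± 0.49, adjusted p = 0.00684 over the pericardium). Those calls were lost without proepicardium 1 or 2, heart tube 2 or 3 or pericardium 1 in turn (log2 fold change -1.35 to -1.06, adjusted p 0.0568 to 0.0861) for the proepicardium and without pericardium 1 (log2 fold change -2.01) for the pericardium.

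Of the calcineurin genes, rcan1a, a calcineurin inhibitor induced by its target factors, had 241, 369 and 301 CPM in the heart tube libraries, 23.3, 28.3, 21.3 and 9.16 CPM in the proepicardium libraries and 26.3 and 35.9 CPM in the pericardium libraries. On the log2 scale the difference was 3.89 ± 0.39 over the proepicardium (adjusted p = 4.81e-05) and 3.29 ± 0.51 over the pericardium (adjusted p = 0.000785). NFATC1, a calcineurin target also listed as an endocardial marker, was called higher (log2 fold change 2.41 ± 0.63, adjusted p = 0.0140 over the proepicardium, 3.46 ± 0.87, adjusted p = 0.0120 over the pericardium). The second call was lost without pericardium 2 (log2 fold change 2.87). NFATC3 (ENSDARG00000076297), another target, was called lower (log2 fold change -1.10, adjusted p = 0.0257 over the proepicardium, -1.46, adjusted p = 0.0139 over the pericardium). Both calls were lost in several fits that left out 1 library. Of 13 calcineurin genes tested, 3 were called higher and 1 lower over the proepicardium (23.1% and 7.69%, against 12.7% and 16.8% of all genes). Over the pericardium 2 were higher and 1 lower (15.4% and 7.69%, against 11.0% and 16.1%). ADRB1, a beta-adrenergic receptor whose signalling speeds the calcium cycle, was called higher (log2 fold change 4.20 ± 0.83, adjusted p = 0.00307 over the proepicardium, 3.76 ± 1.08, adjusted p = 0.0228 over the pericardium), the second call being lost without heart tube 3 or pericardium 1 or 2 in turn (log2 fold change 2.90 to 4.01, adjusted p 0.0938 to 0.134). PPP1R1B, a phosphatase inhibitor, was called lower (log2 fold change -3.71 ± 0.77, adjusted p = 0.00407 over the proepicardium, -4.26 ± 0.84, adjusted p = 0.00324 over the pericardium). Over the proepicardium PDE4B (log2 fold change -1.40, adjusted p = 0.0314 in edgeR) and pde4cb (-4.94, adjusted p = 0.00815) were called lower too. The PDE4B call was lost in 7 of the 9 fits that each left out 1 library (log2 fold change -1.63 to -1.08). Of 17 beta-adrenergic and PKA genes tested, 3 were called higher and 3 lower over the proepicardium (17.6% each, against 12.7% and 16.8% of all genes). Over the pericardium 6 were higher and 3 lower (35.3% and 17.6%, against 11.0% and 16.1%).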

How the data were processed

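RNA-seq libraries from 9 pooled dissections were analysed. Per the submitters' processing notes, CASAVA 1.8, fastp, STAR, featureCounts and DESeq2 were used with GRCz11 (danRer11), and parameters are not given in the sources used here. The authors deposited whole-number counts per Ensembl gene identifier, not normalised, and a second table of log2 values. All 193374 deposited log2 values lay within 1e-06 of a regularised log2 transformation of the counts made with DESeq2 without group information. The 16 construct rows, at most 0.0309% of a library, were left out of library sizes and tests. Their counts were 4147, 4263 and 3240 in the heart tube libraries and 73, 36, 602 and 334 in the proepicardium libraries. The pericardium libraries had 74 and 35.

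Symbols came from a table naming 29201 of 32520 identifiers, 61 members carry human-style symbols, and 12 symbols stand for 2 identifiers each, so full identifiers are given for such copies. Gene lengths were not used. Read shares within a family, and the choice of the member with the highest mean, are therefore in reads not corrected for length.

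Tests on the counts used edgeR 4.0.16 (R 4.3.3), with filterByExpr (minimum count 10, minimum total 15), TMM, glmQLFit with robust estimation and glmQLFTest, tissue as the only factor and all 9 libraries in one fit. P-values were Benjamini-Hochberg adjusted over 17003 genes. Standard errors of log2 fold changes are the absolute log2 fold change over the square root of F. Folds against a tissue with 0 counts use 3 counts per library, and ratios where a tissue had 1 to 3 counts per library at most carry exact 95% intervals conditional on the total, for counting error only.

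Members and lists were chosen with earlier results of these data known. Values in full are given for the textbook cardiac set, for up to 3 called members per role, comparison and direction by p-value, for the member with the highest mean in each role and tissue, and for the 5 smallest p-values between proepicardium and pericardium. Other genes were named after their values were seen. Alternatives were other scalings and filters, DESeq2 1.42.0, limma 3.58.1 (voom, and on the deposited log2 table), a replicate block and leaving out each library. One more, without heart tube 1 and proepicardium 3 together, was chosen after seeing the data.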

Additional observations from a re-analysis of the deposited data

Results flagged for a closer look

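Among the 50 genes given in full, 7 had 1 proepicardium library far from the other 3 on the log2 CPM scale (prior count 2). The gap to the nearest library took more of the whole range than Dixon's 95% limit for 4 samples allows. Chance marks about 1 in 20 groups of 4. calm3a stood at 3.22 in proepicardium 2, below the other 3 libraries at 4.16 to 4.33. CAMK2N2 (ENSDARG00000025855) stood at -0.14 in proepicardium 4, below the other 3 libraries at 2.07 to 2.35. CASQ1 (ENSDARG00000038716) stood at 1.48 in proepicardium 1, below the other 3 libraries at 2.47 to 2.61. JPH2 stood at -1.71 in proepicardium 1, below the other 3 libraries at -0.20 to 0.03. s100a11 stood at 4.35 in proepicardium 4, below the other 3 libraries at 8.48 to 8.70. SLC8A1 (ENSDARG00000013422) stood at 1.71 in proepicardium 3, above the other 3 libraries at -0.32 to -0.18. trdn stood at 4.21 in proepicardium 3, above the other 3 libraries at 2.67 to 2.90. The library that stood apart was proepicardium 3 for SLC8A1 and trdn, which are heart muscle genes, and that library also held the largest cardiomyocyte marker sum of the proepicardium, 448 CPM against 126 to 190 CPM in the other 3. Its part in these values was not tested. The low JPH2 value rests on 3 counts.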

How the results depend on the processing

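Members called ranged from 37 to 53 (heart tube over proepicardium) and from 32 to 59 (over pericardium) across 21 alternatives, and were 0 between proepicardium and pericardium in each. Of the called members, 19 of 23 higher and 13 of 18 lower against the proepicardium, and 19 of 25 higher and 10 of 18 lower against the pericardium, were called in the same direction under every alternative. The matching share was not counted over all called genes, so these counts do not set the members apart from other genes. Over all genes, 5007 were called against the proepicardium, and 3687 to 5958 across the alternatives. Leaving out 1 library moved the member counts between 37 and 44, and between 32 and 48.

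Genes called between heart tube and pericardium numbered 4613, 6926 with limma-voom, and 2237 to 4950 with libraries left out. The lowest counts, 2316 and 2237, came without pericardium 1 and without pericardium 2, which leave that tissue 1 library that is assumed to vary like the others. Between proepicardium and pericardium, DESeq2 called 102 genes, limma-voom 7 and limma on the deposited log2 values 3, against 0. Other pathway genes called against the pericardium numbered 20 in all and 9 to 22 with 1 library left out.

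Directions changed in these cases, none of them called in edgeR with all libraries. For atp2a1 over the pericardium (0.15), limma-voom gave -2.33 and called it lower (adjusted p = 0.0290), limma on the deposited table -0.93, the replicate block -1.02, and leaving out heart tube 1 alone or with proepicardium 3 gave -3.00 and -3.04 (range with libraries left out -3.04 to 0.82). For CACNG1 over the pericardium (0.33) the same settings gave -3.78, -1.13, -0.81, -4.99 and -5.03, and leaving out pericardium 2 gave -0.18 (range with libraries left out -5.03 to 1.78). CALM2 over the pericardium (0.01) moved to -0.00045 without the filter, -0.078 with the replicate block and -0.18 without heart tube 3. atp2a1l over the pericardium (-1.63) moved to 1.33 without pericardium 1 (range -3.85 to 1.33), and CASQ1 (ENSDARG00000038716) over the pericardium (-0.27) to 0.41 and 0.30 without heart tube 2 or 3 (range -4.82 to 0.41). Over the proepicardium, calm1b (0.19) moved to -0.059 without proepicardium 3 (range -0.059 to 0.55), calm3b (-0.34) to 0.15 without proepicardium 1 (range -0.67 to 0.15), and CASQ1 (ENSDARG00000018105; 0.04) to -0.28, -0.060 and -0.41 without proepicardium 1, proepicardium 4 or heart tube 1 (range -0.41 to 0.78). The cause was not tested.

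Deviations of same-numbered libraries from their tissue means correlated at -0.02 to 0.14 over 10679 genes. With 2 pericardium libraries the deviations of one mirror those of the other. These correlations therefore cannot decide whether same-numbered libraries were prepared together, which the labels do not say. With the replicate block 38 and 37 members were called against the proepicardium and the pericardium. The shift of the median of all genes under another scaling was at most 0.1 on the log2 scale, and the filter on a mean count of at least 50 shifted it by 0.11 and 0.18. Depth limits the sparse members: 20 of 108 had too few counts to test. The pericardium rests on 2 libraries.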

Other observations

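The 20 members too sparse to test included 14 of the 32 voltage-gated channel subunits. S100B, an S100 gene of glia in mammals, was at 0 counts in all heart tube and pericardium libraries and at 0.282, 0, 0.920 and 0 CPM in the 4 proepicardium libraries. cacna1ib, a T-type pore, had 1.71, 0 and 0 CPM in the heart tube libraries, 0.169, 0, 0.368 and 0 CPM in the proepicardium libraries and 0 and 0 CPM in the pericardium libraries. CAMK2N1, an inhibitor of CaM kinase II, was at 0 in the heart tube, at 0.113, 0, 0.123 and 0.772 CPM in the proepicardium and at 0.0501 and 0 CPM in the pericardium.

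Further members passed the threshold in edgeR when 1 library was left out. S100Z had 13.5, 0.276 and 0.163 CPM in the heart tube libraries, 25.9, 21.1, 2.82 and 9.05 CPM in the proepicardium libraries and 27.2 and 16.5 CPM in the pericardium libraries and was not called with all libraries. Without heart tube 1 it was called lower, at -5.98 over the proepicardium and -6.52 over the pericardium. cacng4a was called lower without the same library, at -3.79 and -4.21. Other calls gained without heart tube 1 were jph3a over the proepicardium (-7.32) and s100t over the pericardium (-2.82), and without heart tube 2 cacna1ha over the pericardium (-4.52). Over the proepicardium, cacna2d2a was called at 5.30 without proepicardium 2, s100a10a at 4.73 without proepicardium 1, atp2b1b at 4.10 without proepicardium 4 and calm2a at 0.87 without proepicardium 3. Heart tube 1 was the highest heart tube library in 12 of the 18 members called lower against the proepicardium, and in 1563 of the 2853 genes called lower there (54.8%).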
